A study of Homo sapiens with 30 samples.

Results

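RNA-seq of 5637 cells, a human bladder carcinoma cell line, was used to compare 3 libraries with ANKRD10-1 overexpression with 3 control libraries labelled Vector, which are 6 of the 30 libraries of the series. The members were chosen by the labels of the libraries, and all genes of the count table were considered. The experiment asks what the longer of the 2 splice variants of ANKRD10 does to gene expression, in a study of the RNA-binding protein RBPMS and the splicing of this gene. Both groups were labelled as 5637 cells. The study lists a Flag-tagged ANKRD10-1 plasmid among its materials, but which construct these libraries received, and how long before harvest, is not given in the sources used here. The paper places ANKRD10-1 overexpression in 5637 cells with RBPMS knocked out, while the labels name 5637 cells alone and give 1 Vector group for both splice variants, so the background of these cells is not settled. The cells are of 1 tumor line, and the labels do not say whether the 3 libraries of a group came from separate cultures. The p-values therefore measure the spread between these libraries, which may be technical. A further group of 3 libraries, the shorter variant ANKRD10-2 from the same table, was used only to see where the ANKRD10-1 libraries differed from it.

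ANKRD10 encodes a protein with ankyrin repeats, a fold that binds other proteins. Cells that detect foreign nucleic acid or interferon switch on interferon-stimulated genes through transcription factors such as STAT2 and IRF9, and many of their products restrict viruses. Cells that hold misfolded protein switch on chaperone genes instead, in the cytosol through the heat shock factor HSF1, and in the endoplasmic reticulum (ER) through the sensors of the unfolded protein response, which act through XBP1, ATF6 and ATF4.

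Libraries held 39765887 to 47493499 counts in ANKRD10-1 and 34768436 to 47116480 in Vector. Vector replicate 3 stood apart, with 64 of 15668 genes at least 2-fold above both other Vector libraries, against 0 to 1 genes in the 3 ANKRD10-1 libraries and 25 in ANKRD10-2 replicate 3. An example is ST14, a membrane serine protease, with 1449.8, 1340.1 and 4152 normalized counts in Vector and 1179.3, 1175.6 and 1181.1 in ANKRD10-1. Its log2 fold change of −0.98 (adjusted p = 0.0425 from edgeR) became −0.24 without Vector replicate 3 and still passed (adjusted p = 0.0255 from edgeR). Epithelial markers were high in every library, with a summed level of the 8 genes of 3140 to 3280 counts per 1000000 (CPM) in ANKRD10-1 and 2910 to 3100 in Vector. The 9 leukocyte markers summed to 16.7 to 18.7 CPM in ANKRD10-1 and 23.3 to 25.2 in Vector, nearly all of it CD68 (log2 fold change −0.44, adjusted p = 0.00085 from edgeR). The pan-leukocyte marker PTPRC had 4 to 19 raw counts per library and CD3E was at 0 in all 6. The part of this difference in the results was not tested. The 8 fibroblast markers summed to 73.3 to 76.7 and 70 to 72.5 CPM, and the 6 endothelial markers to 2.87 to 3.28 and 2.37 to 3.28 CPM. In bulk RNA, fewer cells of a type and less RNA per cell cannot be told apart.

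The overexpressed gene was higher in every ANKRD10-1 library. ANKRD10 (chromosome 13, 110878540 to 110915069, minus strand, GRCh38) had 10243, 10136.9 and 10527.2 normalized counts in ANKRD10-1 and 6476.5, 6445.4 and 6468.6 in Vector. The groups were far apart beside the spread within them (n = 3 per group, log2 fold change 0.67, SE 0.04, adjusted p = 4.44e-09 by edgeR's quasi-likelihood test). These counts sum all transcripts of the gene, 11 in GENCODE v29, and the overexpressed variant alone cannot be read from them. The annotation holds a transcript with 6 exons and 420 codons (ANKRD10-201) and one with 5 exons and 220 codons (ANKRD10-202). Neither the labels nor the methods name the transcript that was overexpressed in each group, but these coding transcripts are a longer and a shorter form that part after exon 3. They are shown here because a reader of splice junctions would tell the forms apart there, whereas gene counts cannot. The last 15 bases of exon 3 (chr13:110906033-110906047) are in lower case and the first 15 bases of exon 4 in capitals, read on the minus strand, with the exon 4 part at chr13:110893249-110893263 in ANKRD10-201 and at chr13:110894188-110894202 in ANKRD10-202.
ANKRD10-201: tggggctcacgtcgaCCTGAGAAATGCCAG
ANKRD10-202: tggggctcacgtcgaGTTTATTTCACAGAG

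With ANKRD10-1, 1291 of 20457 genes tested were differentially expressed (6.31%), 717 higher (3.5%) and 574 lower (2.81%), at an adjusted p-value under 0.05. Most changes were small. Of these genes, 80 (0.391% of those tested) also passed an absolute log2 fold change of 1, 16 of them higher and 64 lower. Of these 64 falls, 36 were in the list of interferon-stimulated genes, and of the 16 rises, 5 were in the list of heat shock response genes. The plot of change against level shows these lists against all genes.

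**Figure D1:**
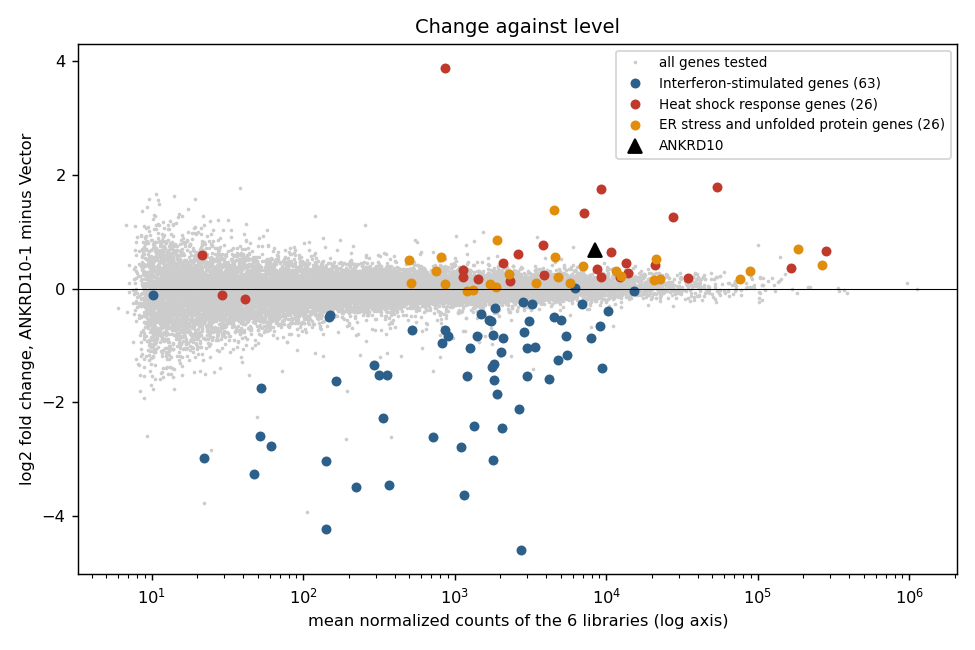
Each point is a gene, with the mean normalized counts of the 6 libraries on the horizontal log axis and the log2 fold change of ANKRD10-1 minus Vector on the vertical axis. Interferon-stimulated genes reach −4.59 (IFI44L), heat shock genes reach 3.87 (HSPA6), and ANKRD10 itself is at 0.67.

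Interferon-stimulated genes were lower with ANKRD10-1 almost throughout. Of 63 members of the list, all tested, 58 fell (92.1%, against 2.81% of all genes tested) and 0 rose. Their median log2 fold change was −1.17, beside 0 for all genes tested. The libraries of the groups did not overlap for 60 of the 63 genes, all lower, which is the case for 12.7% of all genes tested. Among genes with a symbol and a mean of at least 50 normalized counts, the 12 largest falls were all members of this list.

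Promoters of some of these genes are shown because many, though not all, carry a core of the element through which interferon acts. The core searched was GAAA, then 2 bases of any kind, then GAAA, on either strand, within 250 bases before and 50 after the start site of RefSeq (GRCh38.p14). It was present in 30 of the 46 promoters of the list that the RefSeq table holds (65.2%), and in 3.65% of 27305 promoters of the table. It was in 0 of 23 promoters of heat shock genes. In these windows upstream of the start site the core is in capitals, in the direction of the gene, with TTTC for a core on the other strand. A match describes the letters and is not a measured binding site.
IFI44L, chr1:78620365-78620394, plus strand: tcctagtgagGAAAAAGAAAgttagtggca
BST2, chr19:17405735-17405764, minus strand: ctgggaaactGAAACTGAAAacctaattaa
IFI6, chr1:27672266-27672295, minus strand: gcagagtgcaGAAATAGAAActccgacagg
IFI44, chr1:78649759-78649788, plus strand: gggcacactgagTTTCAGTTTCctttctct
IFIT1, chr10:89392510-89392539, plus strand: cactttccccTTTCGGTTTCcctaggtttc
ISG15, chr1:1013380-1013409, plus strand: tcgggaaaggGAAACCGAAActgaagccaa

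IFI44L, an interferon-induced cytosolic protein, had 198.4, 227.9 and 229.5 normalized counts in ANKRD10-1 and 5090.6, 5475.8 and 5178.3 in Vector. All ANKRD10-1 libraries were far below all Vector libraries, with Vector 24 times as high (log2 fold change −4.59, SE 0.07, adjusted p = 5.72e-18 from edgeR). Its neighbor IFI44 went from 3276.1, 3059.3 and 3211.8 in Vector to 374.6, 411.4 and 402.7 in ANKRD10-1 (log2 fold change −3.01, SE 0.06, adjusted p = 1.12e-15 from edgeR). BST2 encodes tetherin, which holds budding virus at the cell surface. It had 183.6, 151.3 and 186.2 normalized counts in ANKRD10-1 and 2223.9, 2032.6 and 2158.6 in Vector, again without overlap (log2 fold change −3.62, SE 0.08, adjusted p = 3.68e-15 from edgeR). MX1 and MX2, dynamin-like GTPases that block viral nucleocapsids, fell, with log2 fold changes of −2.44 and −2.79. MX1 had 593.4, 681.9 and 648.5 normalized counts in ANKRD10-1 and 3124.7, 3557.4 and 3738.9 in Vector.

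XAF1, a proapoptotic protein induced by interferon, was nearly lost, with 14.8, 17 and 10.8 normalized counts in ANKRD10-1 and 253.1, 286.7 and 268.5 in Vector (log2 fold change −4.22, SE 0.19, adjusted p = 2.72e-11 from edgeR). IFI6, a membrane protein that limits flavivirus replication, had 51, 68.1 and 66 in ANKRD10-1 and 682.5, 707.1 and 635.7 in Vector (log2 fold change −3.45). For both genes each Vector library was above each ANKRD10-1 library. IFITM1 and IFITM2, membrane proteins that hinder virus entry, fell, with log2 fold changes of −3.48 and −2.58. OAS2 and OASL, members of the oligoadenylate synthetase family that senses double-stranded RNA, had log2 fold changes of −3.03 and −2.77, and TRIM22, an antiviral ubiquitin ligase, one of −2.61. Some of these counts share sequence with other genes. IFITM1 and IFITM2 have 351 bases of exon in common on the same strand, XAF1 and RP11-609D21.3 2535 bases on opposite strands, and MX1 and AP001610.5 236 bases on opposite strands. The strand setting of the count is not given in the sources used here, so reads of such pairs cannot be told apart. RP11-609D21.3 had a log2 fold change of −3.92 and AP001610.5 of −2.61.

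**Figure D2:**
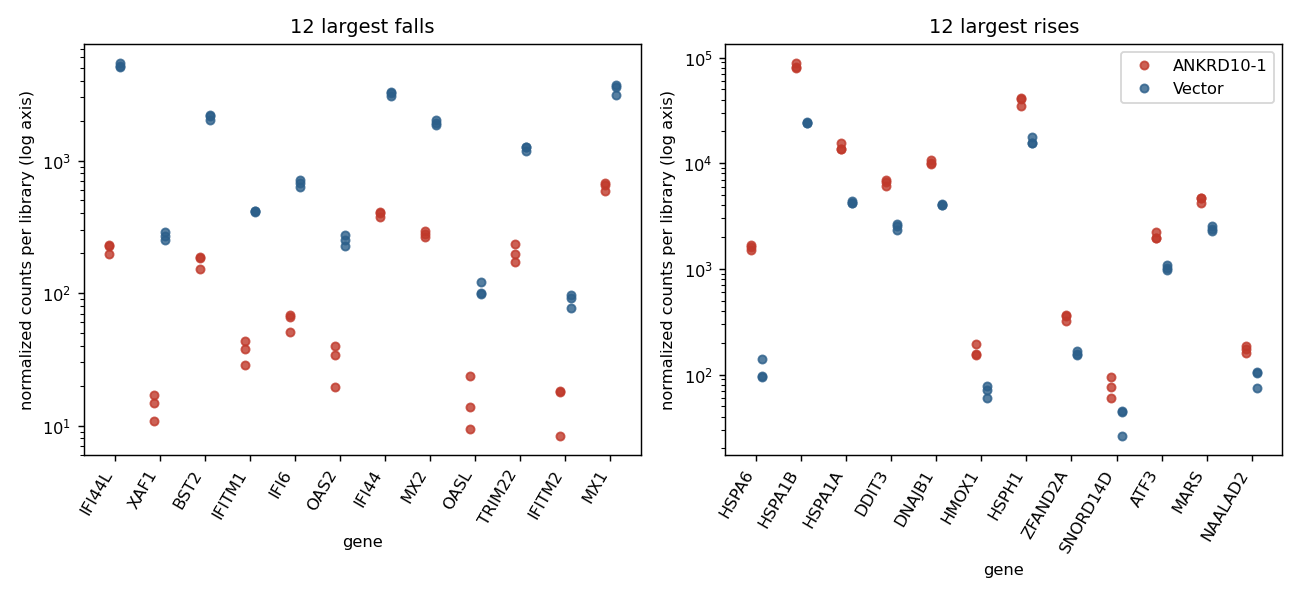
Normalized counts per library on a log axis for the 12 genes with the largest falls (left) and the 12 with the largest rises (right), with red points for the 3 ANKRD10-1 libraries and blue points for the 3 Vector libraries. The groups do not overlap for any of the 24 genes, which the rule that picked them required, and IFI44L differs most (198.4 to 229.5 against 5090.6 to 5475.8).

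Some genes that carry or sense the interferon signal, picked after their values were seen, fell. They include members of the list above, such as ISG15 and IFIH1, whose falls are already counted there. IRF9, which binds the DNA of interferon-stimulated genes, had 1555.7, 1527.4 and 1538.4 normalized counts in ANKRD10-1 and 4287.5, 4502.7 and 4601.8 in Vector (log2 fold change −1.53, SE 0.05, adjusted p = 2.96e-13 from edgeR). Its groups did not overlap. STAT2, its partner, fell by 0.56. IRF7, the factor that drives interferon alpha genes, was at −1.52 and ISG15, a ubiquitin-like modifier, at −1.53. The RNA sensors IFIH1 (MDA5) and DDX58 (RIG-I, now named RIGI) were at −1.04 and −1.37, and EIF2AK2, the kinase PKR, at −1.25. The receptor genes IFNAR1 and IFNAR2 fell less, with log2 fold changes of −0.21 and −0.22 (adjusted p = 0.0271 and 0.0349 from edgeR).

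Genes of the same list that did not pass were ISG20 (log2 fold change −0.50, adjusted p = 0.0614 from edgeR), UBA7 (−0.47, adjusted p = 0.0752), DHX58 (−0.11, adjusted p = 0.935), GBP2 (−0.05, adjusted p = 0.669) and IRF1 (0.01, adjusted p = 0.92). GBP2 and IRF1 are induced above all by interferon gamma. IRF1, a transcription factor, had 6405.6, 6211.9 and 6145.9 normalized counts in ANKRD10-1 and 6413.8, 5675.1 and 6482.1 in Vector, so that the groups overlapped. The interferon genes themselves were nearly silent. IFNB1, IFNL1, IFNL2 and IFNL3 had 0 to 6 raw counts in each of the 6 libraries and could not be tested. Among the other ligands and sensors of cytosolic nucleic acid, 2 of 10 genes tested fell (20%, against 2.81% of all genes tested) and 0 rose. These were SAMHD1, which degrades deoxynucleotides (log2 fold change −1.19, adjusted p = 1.29e-11 from edgeR, with 205 bases of exon shared with TLDC2 on the opposite strand), and AIM2, a sensor of cytosolic DNA (−0.68, adjusted p = 0.00224). MB21D1, the DNA sensor cGAS, had a log2 fold change of 0.30 (adjusted p = 0.0623 from edgeR), and TMEM173, its adaptor STING, of −0.39 (adjusted p = 0.338).

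Genes of antigen presentation by MHC class I were moderately lower, with a median log2 fold change of −0.21. Of 21 genes, 9 fell and 2 rose (42.9% and 9.52%, against 2.81% and 3.5% of all genes tested). The largest falls were PSMB9, an immunoproteasome subunit (log2 fold change −0.53, adjusted p = 0.00624 from edgeR), NLRC5, the transactivator of these genes (−0.48), TAP1, which carries peptides into the ER (−0.39), and HLA-B, a heavy chain (−0.33). The 2 that rose, CALR and PDIA3, are general ER chaperones. HLA genes are alike in sequence, so counts of single members are uncertain.

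Cytosolic chaperone genes rose together. Of 26 heat shock response genes, all tested, 20 rose (76.9%, against 3.5% of all genes tested) and 0 fell, with a median log2 fold change of 0.38. The largest rise of the whole comparison was HSPA6, a chaperone of the HSP70 family that is nearly silent without stress. It had 1689.2, 1513.3 and 1622.8 normalized counts in ANKRD10-1 and 95.7, 140.9 and 97 in Vector, a 14.7-fold difference with a wide gap between the groups (log2 fold change 3.87, SE 0.11, adjusted p = 6.63e-14 from edgeR).

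HSPA1B and HSPA1A encode the same inducible HSP70 protein from near-identical genes, so reads may be split between them. HSPA1B had 81804.8, 79482.6 and 89453 normalized counts in ANKRD10-1 and 24087.8, 24480.3 and 23867.5 in Vector (log2 fold change 1.79, SE 0.05, adjusted p = 4.2e-14 from edgeR). HSPA1A rose by 1.74. In both genes all ANKRD10-1 libraries were above all Vector libraries. DNAJB1, the HSP40 partner that brings clients to HSP70, had 9909.2, 9947.7 and 10635.5 against 4121.1, 4037.3 and 3997.5 (log2 fold change 1.33), though its exons share 228 bases with TECR on the opposite strand (log2 fold change 0, adjusted p = 0.992 from edgeR). HSPH1, the exchange factor HSP110, had 41367.8, 40793.5 and 34491.6 against 17615.2, 15540.6 and 15703.7 (log2 fold change 1.26). BAG3, a co-chaperone of selective autophagy, rose by 0.76, CHORDC1, a co-chaperone of HSP90, by 0.65, and ZFAND2A, an arsenite-inducible zinc finger protein, by 1.12.

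HSP90AA1, the more inducible HSP90 of the cytosol, had 357731, 332641 and 352036 normalized counts in ANKRD10-1 and 217459, 223587 and 219933 in Vector (log2 fold change 0.66, SE 0.04, adjusted p = 1.34e-08 from edgeR). The groups did not overlap. HSP90AB1, its constitutive form, rose by 0.36 and HSPA8, the constitutive HSC70, by 0.41. SNORD14D, a small nucleolar RNA with a log2 fold change of 1.03, lies within HSPA8 on the same strand, and 87 bases of its exon are also annotated as exon of HSPA8. HSF1, which encodes the transcription factor of the response, had a log2 fold change of 0.21 (adjusted p = 0.251 from edgeR). Of the 10 genes of the chaperonin CCT and of HSP60 with its partner, 7 rose (70%, against 3.5% of all genes tested). Their median was 0.21, and they were led by TCP1 and HSPD1 at 0.44 each.

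The heat shock element searched, chosen after values were seen, was GAA, TTC and GAA with 2 bases of any kind between them, on either strand. It was present in 6 of the 23 promoters found for heat shock genes (26.1%) and in 0.487% of all promoters of the table. Windows of the called genes with the largest rises among those with a match are shown, with the element in capitals, read as TTC, GAA and TTC where it is on the other strand.
HSPA6, chr1:161524458-161524487, plus strand: cggaaaggTTCGCGAAAGTTCgcggcggcg
CHORDC1, chr11:90223078-90223107, minus strand: aaattcgcGAAGGTTCCTGAAacgcaacgg
HSPA8, chr11:123062170-123062199, minus strand: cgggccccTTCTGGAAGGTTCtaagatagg

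Genes of the unfolded protein response rose in the same direction. Of 26 members, all tested, 15 rose (57.7%, against 3.5% of all genes tested) and 0 fell, with a median log2 fold change of 0.24. HSPA5, the main HSP70 of the ER (BiP), had 226246, 224391 and 231156 normalized counts in ANKRD10-1 and 142231, 137303 and 142918 in Vector, without overlap (log2 fold change 0.69, SE 0.04, adjusted p = 3.78e-09 from edgeR). Its ER partners HSP90B1 (GRP94), PDIA4, a disulfide isomerase, and MANF, a secreted stress protein, rose by 0.42, 0.52 and 0.56, and HERPUD1, which helps to degrade ER proteins, by 0.85. XBP1, the transcription factor that is spliced in this response, rose by 0.39. The sensor genes ERN1, EIF2AK3 and ATF6 did not pass, with log2 fold changes of 0.08, 0.08 and −0.05 (adjusted p = 0.566, 0.441 and 0.696 from edgeR). CRELD2 was at 491.2, 527.3 and 949.1 in Vector, so that its log2 fold change of 0.55 did not pass (adjusted p = 0.0547 from edgeR).

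The ER stress response element, CCAAT and CCACG with 9 bases of any kind between them, also chosen after values were seen and read on either strand, was in 6 of 25 promoters of this list (24%) and in 22 of all 27305 (0.0806%). The windows of the called members with the largest rises among those with a match are given, with the element in capitals.
HSPA5, chr9:125241385-125241414, minus strand: cttcaCCAATCGGCGGCCTCCACGacgggg
HSP90B1, chr12:103930316-103930345, plus strand: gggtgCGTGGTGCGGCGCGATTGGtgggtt
XBP1, chr22:28800597-28800626, minus strand: gctggCCAATCGCGGAGGGCCACGaccgta

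Targets of ATF4, the factor of the integrated stress response, rose in 14 of 29 cases (48.3%, against 3.5% of all genes tested). Of these targets 0 were lower, and the median was 0.18. The list overlaps that of the unfolded protein response, and DDIT3 is counted in both. DDIT3, the stress-induced factor CHOP, had 6903.4, 6669.7 and 6084.2 normalized counts in ANKRD10-1 and 2675.3, 2321.8 and 2568 in Vector, without overlap (log2 fold change 1.38, SE 0.06, adjusted p = 1.63e-11 from edgeR). DDIT3 shares 355 bases of exon with MARS (now MARS1), a methionyl-tRNA synthetase on the opposite strand that rose by 0.91, so their reads cannot be told apart. SESN2, a sensor of leucine, rose by 0.85, SLC7A11, the cystine transporter, by 0.82, PPP1R15A, which restores translation after stress, by 0.76, TRIB3, a pseudokinase, by 0.74, and ATF4 itself by 0.33. The classical targets ASNS and PHGDH, of asparagine and serine synthesis, rose by 0.17 and 0.18, while PSAT1 (0.14, adjusted p = 0.343 from edgeR) and SHMT2 (0.03, adjusted p = 0.83) did not pass. Of 20 cytosolic aminoacyl-tRNA synthetase genes, 9 rose (45%, against 3.5% of all genes tested) and 0 fell, with a median of 0.14. The motif TGATG, 1 base of any kind and AAT, bound by ATF4 with CEBP proteins and chosen after values were seen, was found in 0 of 24 promoters of the ATF4 list and in 1.02% of all promoters.

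Among genes of the antioxidant factor NRF2, 7 of 26 rose (26.9%, against 3.5% of all genes tested), 0 fell and the median was 0.13. The 7 include SLC7A11, which is also counted among the ATF4 targets. HMOX1, which degrades heme, had 194.7, 155.1 and 153.7 normalized counts in ANKRD10-1 and 59.8, 77.8 and 71.8 in Vector (log2 fold change 1.27, SE 0.16, adjusted p = 8.77e-05 from edgeR), each ANKRD10-1 library being above each Vector library. NQO1, a defining target, had a log2 fold change of 0.07 (adjusted p = 0.565 from edgeR). ATF3, a stress-induced factor of the AP-1 family, rose by 0.99, from 1087.1, 967.1 and 1020 to 2209.4, 1953 and 1966. Other AP-1 and immediate early genes went both ways. FOSB, EGR1 and FOS fell, with log2 fold changes of −0.93, −0.55 and −0.52, while FOSL1 and GADD45B rose by 0.42 and 0.38. In the whole list of 26 such genes, 5 rose and 3 fell (19.2% and 11.5%, against 3.5% and 2.81% of all genes tested), with a median of −0.02.

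**Figure D3:**
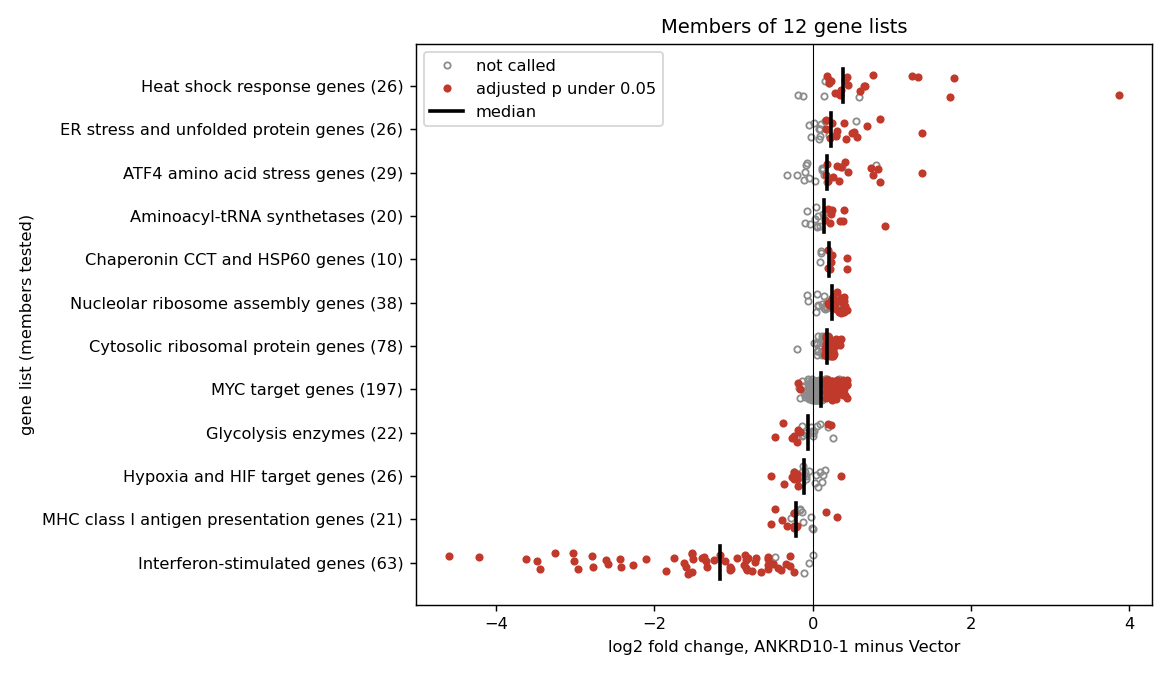
Each point is a gene tested, with its log2 fold change of ANKRD10-1 minus Vector on the horizontal axis, for 12 gene lists on the vertical axis, filled where the adjusted p was under 0.05, with a black bar at the median of the list. The median runs from −1.17 for interferon-stimulated genes to 0.38 for heat shock response genes.

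Genes of protein synthesis were slightly and widely higher. Of 78 cytosolic ribosomal protein genes tested, of 81 in the table, 41 rose (52.6%, against 3.5% of all genes tested) and 0 fell. However, the median was only 0.18 and the highest value 0.36 (RPS2). Of 38 nucleolar genes of ribosome assembly, 21 rose (55.3%) and 0 fell, with a median of 0.25. NOP2, an rRNA methyltransferase, had 1925.7, 1897.2 and 1889.1 normalized counts in ANKRD10-1 and 1464.7, 1417.9 and 1369.3 in Vector (log2 fold change 0.43), and DKC1, the pseudouridine synthase dyskerin, rose by 0.40. Host genes of small nucleolar RNAs rose in 8 of 22 cases (36.4%), with a median of 0.20. Mitochondrial ribosomal protein genes differed from these, with 5 of 78 higher (6.41%) and a median of 0.10, and of the 13 genes encoded by mitochondrial DNA 0 were called by edgeR, with log2 fold changes from −0.08 to 0.07.

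MYC, a transcription factor that drives such genes, had 2413.3, 2380.5 and 2617.7 normalized counts in ANKRD10-1 and 2258.8, 2140.8 and 2242.1 in Vector. The groups did not overlap, but the log2 fold change of 0.16 did not pass (SE 0.05, adjusted p = 0.0914 from edgeR), nor did that of its partner MAX (0.17, adjusted p = 0.127). Of 197 MYC target genes tested, 59 rose and 2 fell (29.9% and 1.02%, against 3.5% and 2.81% of all genes tested). Their median was 0.11. This list overlaps others given above. TCP1 and HSPD1 are also counted among the chaperonin genes, and NOP2, RRP12 and POLR1B among the nucleolar genes. The E-box CACGTG, which MYC binds with MAX, was in 19.2% of the 167 promoters found for the MYC list and in 7.43% of all promoters. It was in 4.76% of the 63 promoters found for cytosolic ribosomal protein genes. Of 7 targets on a separate qRT-PCR panel, 3 rose and 1 fell. RSL1D1, WDR43 and DDX21, all of ribosome assembly, rose by 0.33, 0.33 and 0.21. PGK1, a glycolytic kinase, fell by 0.18, and HK2, C1QBP and PRMT3 did not pass (log2 fold changes −0.14, 0.19 and 0.24, adjusted p = 0.0592, 0.128 and 0.0676 from edgeR). In the direct test MYC was 0.39 higher in ANKRD10-2 than in ANKRD10-1 (adjusted p = 0.00031 from edgeR).

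More glycolysis and hypoxia genes fell than rose. Of 22 glycolysis genes, 7 fell and 2 rose (31.8% and 9.09%), with a median of −0.06. Of 26 hypoxia genes, 8 fell and 1 rose (30.8% and 3.85%), with a median of −0.12. These lists overlap, and PDK1 is counted in both. Of all genes tested 2.81% fell and 3.5% rose. PFKFB4, which makes the activator of phosphofructokinase, had a log2 fold change of −0.47, SLC2A3, a glucose transporter, of −0.38, PDK1, which blocks entry of pyruvate into mitochondria, of −0.26, and ANGPTL4, a secreted inhibitor of lipoprotein lipase, of −0.53. TXNIP, which limits glucose uptake and is in neither list, had 595.2, 580.7 and 575.9 normalized counts in ANKRD10-1 and 1087.1, 1014.5 and 966.2 in Vector (log2 fold change −0.81, SE 0.07, adjusted p = 6.74e-07 from edgeR). VEGFA and HIF1A had log2 fold changes of 0.03 and 0.09 and did not pass (adjusted p = 0.72 and 0.246 from edgeR).

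Proteases, adhesion and cytokine genes changed in a few members. MMP13, collagenase 3, had 376.4, 374.5 and 394.1 normalized counts in ANKRD10-1 and 1085.1, 1020.6 and 1029 in Vector (log2 fold change −1.45, SE 0.07, adjusted p = 2.01e-10 from edgeR), with no overlap. MMP10 and MMP1 were at −0.80 and −0.38 and PLAT, tissue plasminogen activator, at −0.41. Of 31 such genes 6 fell (19.4%, against 2.81% of all genes tested) and 0 rose. CXCL1, a neutrophil chemokine, was at −0.35, LIF, a cytokine, at −0.24, and TNFSF15 and IL36G at −0.59 and −0.80. Of 30 integrin and laminin genes, 5 fell (16.7%) and 0 rose, led by ITGB8 at −0.40. CDH1 and CDH2, the epithelial and neural cadherins, did not pass (log2 fold changes −0.13 and −0.12, adjusted p = 0.167 and 0.268 from edgeR). VIM, the intermediate filament vimentin of mesenchymal cells, rose from 1150.8, 1173.7 and 1203.2 in Vector to 1754.1, 1644.7 and 1448.5 in ANKRD10-1 (log2 fold change 0.46, SE 0.07, adjusted p = 0.000408 from edgeR). Of the 31 mesenchymal markers tested 1 rose and 4 fell (3.23% and 12.9%). Of the 33 epithelial markers 1 rose and 1 fell (3.03% each), near the 3.5% higher and 2.81% lower of all genes tested. RBPMS had a log2 fold change of −0.19 and did not pass (adjusted p = 0.472 from edgeR).

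Cell cycle genes showed little. Of 47 mitosis genes 3 rose and 1 fell (6.38% and 2.13%), and of 47 DNA replication genes 1 rose and 2 fell (2.13% and 4.26%). These shares are near the 3.5% higher and 2.81% lower of all genes tested. Of 18 G1 cyclins, kinases and inhibitors 0 were called by edgeR. The 34 clustered protocadherin genes tested, cell surface adhesion molecules, also gave 0 calls by edgeR, but with a median of −0.27. Members of the gamma cluster share their last exons and thus reads, so their nearly equal values, such as −0.28 for PCDHGA1 and −0.27 for PCDHGA2, are not independent.

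To see where the variants differ, ANKRD10-2 was tested against ANKRD10-1 directly, without Vector. Of 20052 genes tested, 1455 were called (7.26%), 833 higher (4.15%) and 622 lower (3.1%) in ANKRD10-2. Of the 60 interferon-stimulated genes tested in this comparison, 8 were lower in ANKRD10-2 and 2 higher, with a median of −0.10. Against the shared Vector libraries the list had a median of −1.17 with 58 falls for ANKRD10-1 and of −1.27 with 59 falls for ANKRD10-2. IFI44L differed by −1.04 and BST2 by −1.37 (adjusted p = 0.000423 and 0.000102 from edgeR), whereas MX2 did not pass (−0.10, adjusted p = 0.649). Of the 26 heat shock genes, 8 were higher in ANKRD10-2 and 0 lower, with a median of 0.13, and HSPA6 did not pass (−0.07, adjusted p = 0.613 from edgeR). In the fits against Vector, which share the 3 Vector libraries, the log2 fold changes of HSPA6 were 3.87 with ANKRD10-1 and 3.80 with ANKRD10-2, those of IFI44L −4.59 and −5.62, and those of DDIT3 1.38 and 1.32.

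ANKRD10-1 was below ANKRD10-2 in hypoxia and glycolysis genes, of which 15 of 26 and 10 of 22 were higher in ANKRD10-2, with medians of 0.23 and 0.21. It was above ANKRD10-2 in neutrophil chemokines, where 5 of 6 were lower in ANKRD10-2 with a median of −0.57. Of all genes tested in this comparison 4.15% were higher and 3.1% lower in ANKRD10-2. Among genes with at least 50 normalized counts, the largest differences upward in ANKRD10-2 were C12orf75, KLF3-AS1, TXNIP, SFTA1P, ARRDC4 and H1FX-AS1, and downward NCF1, a subunit of the phagocyte oxidase, CSF3, the cytokine G-CSF, BST2, UBD, a ubiquitin-like modifier, CACNG8 and CYP1B1-AS1. Without ANKRD10-2 replicate 3, which stood apart from its group, the direct log2 differences were 1.99 for C12orf75, 1.56 for KLF3-AS1 and 1.08 for H1FX-AS1, and each still passed (adjusted p = 4.47e-10, 3.81e-05 and 1.12e-08 from edgeR). These genes also varied within Vector. In the fit of ANKRD10-1 with Vector, Vector replicates 1, 2 and 3 had 228.2, 268.5 and 1947.6 normalized counts for C12orf75. They had 131.5, 153.1 and 1188.8 for KLF3-AS1 and 795.1, 806.7 and 2132.6 for H1FX-AS1. None of these genes passed between ANKRD10-2 and Vector (adjusted p = 0.126, 0.382 and 0.058 from edgeR). CSF3 had a log2 difference of −1.41 (adjusted p = 3.75e-05 from edgeR). For 11 genes reported here the log2 fold changes of ANKRD10-1 and of ANKRD10-2 were on opposite sides of Vector, each past the threshold against Vector and in the direct test. They are a selection, and how many of all genes tested meet this rule is not given here. The 11 therefore do not show how common such genes are. In the single comparison of ANKRD10-2 with Vector 19.9% of the genes tested were called. TXNIP was at −0.81 with ANKRD10-1 and 0.85 with ANKRD10-2, with a direct difference of 1.65 (adjusted p = 3.2e-12 from edgeR). ARRDC4, an arrestin-like paralog of TXNIP, was at −0.63 and 0.63, with a direct difference of 1.26. PLIN2, which coats lipid droplets, was at −0.28 and 0.31, and LDHA, lactate dehydrogenase, at −0.16 and 0.18. SREBF1, the factor of lipid synthesis, was the reverse, at 0.34 and −0.28, as was PPP1R10, a phosphatase regulator, at 0.27 and −0.45.

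**Figure D4:**
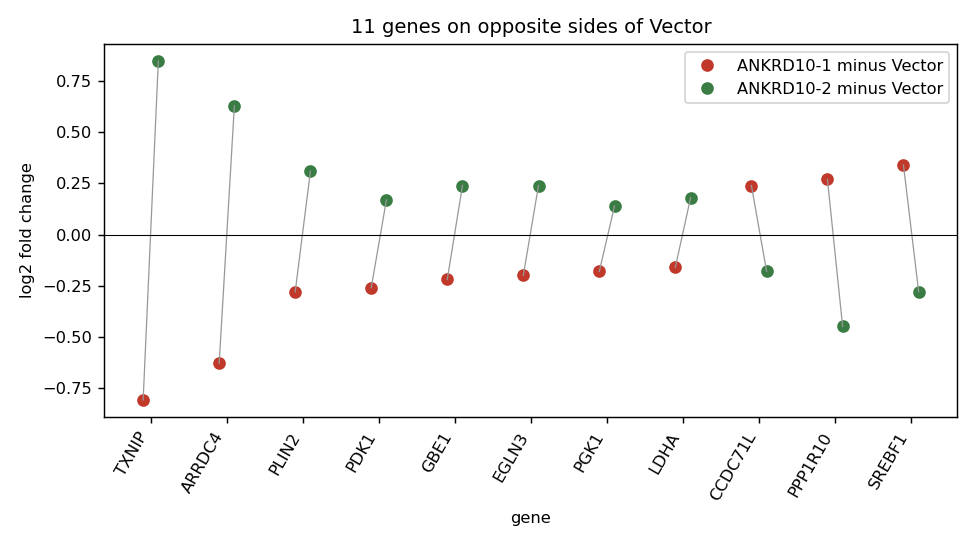
Log2 fold changes on the vertical axis for the 11 genes on the horizontal axis, with red points for ANKRD10-1 minus Vector and green points for ANKRD10-2 minus Vector, joined by a gray line. Both use the same 3 Vector libraries, and 8 genes are lower with ANKRD10-1 and higher with ANKRD10-2, TXNIP most, while 3 are the reverse.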

How the data were processed

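Poly(A) libraries of 5637 cells were sequenced. The authors trimmed reads (Trimmomatic 0.36, Cutadapt), aligned them with HISAT2 and deposited raw counts per gene without normalization. The submitters' processing notes name featureCounts of Subread 1.5.1 and GRCh38, the paper's methods StringTie and DESeq2. The table lists 56303 genes by symbol, 28 of them as dates, and 98.18% of the 36117 names also in GENCODE v29 overlapped their GRCh38 position there. Genes with too few counts were removed by filterByExpr (minimum count 10, minimum total 15), counts were scaled by TMM, and groups were compared by the quasi-likelihood test of edgeR 4.0.16 in R 4.3.3 with Benjamini-Hochberg adjustment (threshold 0.05, prior count 0.125). Only the 6 libraries compared entered a fit. Normalized counts are counts scaled to the mean effective library size of these 6 libraries, so levels are not per gene length. Members and lists were chosen with earlier results of these data known. Genes were named by a fixed panel, the 12 largest rises and falls (mean of at least 50 normalized counts, no overlap), the 12 highest called genes up to 6 called members per list and the 6 largest differences each way between the variants. Other genes named in the text, such as interferon pathway members, were picked after values were seen. With 3 against 3, an exact permutation test cannot give p under 0.1. Replicates differed by more than counting noise (chi-square per degree of freedom 5.5 to 12.1). DESeq2 1.42.0, other scalings, no filter, all 9 libraries, a replicate block and each library left out were alternatives. Some genes that met these rules are not reported here.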

Additional observations from a re-analysis of the deposited data

Results flagged for a closer look

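For 5 of the genes named by the fixed panel or by rule, the effects of the variants against the same Vector libraries had opposite signs and the direct test of ANKRD10-2 minus ANKRD10-1 passed. They are part of the 11 such genes given in the Results. The differences were 1.65 for TXNIP, 1.26 for ARRDC4, 0.43 for PDK1, 0.32 for PGK1 and −0.63 for SREBF1 on the log2 scale.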

How the results depend on the processing

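With 1 library left out, the count of genes called between ANKRD10-1 and Vector, 1291 with all libraries, ran from 700 (without ANKRD10-1 replicate 1) to 1549 (without Vector replicate 3), with 401 to 909 higher and 299 to 640 lower. The direct comparison of the variants gave 694 (without ANKRD10-1 replicate 1) to 1396 genes in place of 1455, and 759, 854 and 953 without ANKRD10-1 replicate 2, ANKRD10-1 replicate 3 and ANKRD10-2 replicate 3. Without ANKRD10-1 replicate 2, Vector replicate 1 or Vector replicate 2, there were 768, 831 and 792 calls against Vector. Adding an absolute log2 fold change of 1 as a rule left 80 genes, 16 higher and 64 lower, and 72 in the direct comparison. The median of interferon-stimulated genes ran from −1.20 to −1.15, that of ER stress genes from 0.22 to 0.26 and that of ATF4 targets from 0.16 to 0.22 with a library left out. Without Vector replicate 3, an alternative chosen after seeing the data for the lists, 58 interferon-stimulated genes fell and 21 heat shock genes, 16 ER stress genes and 15 ATF4 targets rose. Values for C12orf75, KLF3-AS1, H1FX-AS1 and CYP1B1-AS1 changed sign to 0.70, 0.68, 0.23 and 0.01 without Vector replicate 3 and were otherwise as low as −1.49, −1.63, −0.66 and −0.14 with a library left out, and none of the 4 was called against Vector with all libraries, while C12orf75 was called higher without Vector replicate 3 (adjusted p = 0.00209 from edgeR). For 144 of 233 named genes the direction and the side of the threshold held in all alternatives, and DESeq2 called 1428 genes (859 higher). Deviations of same-numbered libraries were nearly uncorrelated between ANKRD10-1 and Vector (0.06, −0.03 and 0) and between the variants (−0.02, 0.05 and −0.01). Between ANKRD10-2 and Vector they were 0.08, 0.15 and 0.19, against −0.18 to 0.06 for libraries of different numbers. Such correlations cannot tell whether the numbers mark a shared batch, and the main fits did not pair the libraries. Among examples picked after values were seen, ST14, HES4 and RMI2 were highest in replicate 3 of both Vector and ANKRD10-2. With all 9 libraries scaled together, ST14 had 3933.5 and 4409 normalized counts there, against 1166.8 to 1375.9 in the other libraries of these groups. PITHD1 was highest in replicate 3 in Vector (1155.2) but not in ANKRD10-2 (1272.8). The cause was not tested. With a replicate block 1309 genes were called against Vector. Depth limits genes under about 10 counts, such as the interferon genes.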
